A study of Mus musculus with 18 samples.

Results

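The genes described here encode the proteins of the mitochondrial ribosome, in long-term haematopoietic stem cells (LT-HSCs) that were taken fresh from mouse bone marrow or held in culture at normal or lowered pH. They were chosen by symbol, as every row of the count table named Mrpl or Mrps followed by a number and at most 1 letter, with pseudogenes left out and at least 10 counts required in 3 libraries. All 78 matching symbols passed, of 21003 genes in the table. By symbol, 49 belong to the large subunit (Mrpl) and 29 to the small subunit (Mrps).

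Each of 18 RNA-seq libraries was made from 100 sorted LT-HSCs, with 6 libraries, numbered by mouse from 1 to 6, in each of 3 groups. The groups were fresh, uncultured cells labelled pH 7.4, cells kept for 48 h at pH 7.4, and cells kept for 48 h in medium adjusted to pH 6.9. All mice were 8 to 12 weeks old and wild type, and the labels give the strain as B6.SJL in one field and as c57 B6 WT in another. Both cultures used IMDM, 10% fetal bovine serum and cytokines at 50 ng/ml each, SCF and G-CSF among them, under 3% oxygen.

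The mitochondrial ribosome translates the few messages of the mitochondrial genome, all of which encode core subunits of the respiratory chain and ATP synthase. Its RNAs come from mitochondrial DNA, whereas every one of its proteins is encoded in the nucleus, made on cytosolic ribosomes and imported. Quiescent haematopoietic stem cells are known for low rates of protein synthesis and for reliance on glycolysis, and mitochondrial activity is known to rise as they leave quiescence.

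Library totals ran from 1640817 to 7508120 counts, except in the fresh library of mouse 1, which held 6311. That library, the fresh library of mouse 4 (9408 genes detected) and the pH 6.9 library of mouse 3 (8925 genes detected) had fewer than 10000 genes with a count and stood apart from the rest. The other 15 libraries had between 11225 and 12792. Within every group the odd-numbered mice carried 1 first sequencing index, while another marked the even-numbered mice. Group and mouse number parity thus make 6 sets, each with its own index. Within a set of mice, the index changed together with the pH, and the 2 cannot be told apart. The labelled cell type was checked with 13 LT-HSC markers, among them Kit, Procr and Mecom. All 13 had counts in each of the 6 sets. In the 15 libraries Kit was at 69.6 to 207 counts per 1e+06 (CPM). Slamf1, Fgd5 and Hoxb5 were low, with medians of 5.76, 2.69 and 1.20 CPM. T cell markers were at or near 0. Cd34, listed as low in LT-HSCs, was at 660 to 2081 CPM. Mpo, a marker of granulocyte and monocyte precursors, ran from 0.960 to 3130 CPM. These levels leave the purity of the sorted cells undecided. In a bulk library a lower level can come from fewer cells of a type or from less RNA per cell, and these cannot be told apart.

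The members are spread over 17 chromosomes, with at most 11 on one. Of the 78, 33 start within 1000 bases of a protein-coding gene transcribed the other way, some of them also of mitochondrial function. Mrpl36 starts 29 bases from Ndufs6, a subunit of respiratory complex I. Mrps12 starts 172 bases from Sars2, a mitochondrial tRNA synthetase, and Mrps11 starts 412 bases from another member, Mrpl46. In 14 members an exon overlaps a gene on the opposite strand, and because the library kit keeps no strand, reads in such overlaps cannot be assigned with certainty. Mrpl18 with Tcp1, Mrps7 with Gga3 and Mif4gd, Mrps25 with Nr2c2 and Mrpl36 with Ndufs6 are among the members named below to which this applies. Mrps6 shares exon sequence with Slc5a3 on the same strand. The reference annotation also holds 5 pseudogenes of these genes, whose reads could have been shared with their parents.

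RefSeq promoter sequences (GRCm38.p6, 250 bases before to 50 bases after the start) were available for 69 of the 78 members. Both strands were searched for short motifs, without regard to overlap between motifs. A gene counted as a match if any of its listed promoters held the motif. The letters GCGCA and GCGC parted by any 1 base are bound by nuclear respiratory factor 1 (NRF1), a regulator of genes for mitochondrial proteins. These letters were found in 13 members (18.8%), in 5.19% of all 27025 genes with a promoter and in 12.5% of the 8892 detected genes with one. The ETS family letters CCGGAAG were in 26 (37.7%), against 9.93% of all and 22.0% of detected genes. The YY1 letters AAGATGGC were in 12 of 69, against 3.19% and 5.67%. Of the 69, 43 held at least 1 of these 3 (62.3%), against 16.4% and 35.1%. The E-box CACGTG, bound by MYC and related factors, was in 5 (7.25%), against 8.09% and 12.1%. The TATA box letters TATAAA were also in 5 (7.25%), against 15.7% and 8.27%.

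The 150 bases upstream of the annotated start are shown for 4 members, with motif matches in capitals: Mrpl12, which had the largest difference in its pH response among the 78 members, Mrpl20, the next but one, Mrps22, with the second largest fall in even-numbered mice, and Mrpl44, with the smallest difference. They lie at chr11:120484463-120484612 on the + strand, chr4:155802728-155802877 on the + strand, chr9:98601680-98601829 on the - strand and chr1:79775868-79776017 on the + strand of GRCm38. The capitals mark an NRF1 match in Mrpl12 and Mrpl44, an E-box in Mrpl20 and an ETS match in Mrps22.
Mrpl12: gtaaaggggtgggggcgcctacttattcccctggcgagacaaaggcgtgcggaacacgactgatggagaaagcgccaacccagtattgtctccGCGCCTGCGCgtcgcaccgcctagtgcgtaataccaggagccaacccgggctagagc
Mrpl20: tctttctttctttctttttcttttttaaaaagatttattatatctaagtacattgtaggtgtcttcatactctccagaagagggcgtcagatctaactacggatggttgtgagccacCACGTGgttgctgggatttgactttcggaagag
Mrps22: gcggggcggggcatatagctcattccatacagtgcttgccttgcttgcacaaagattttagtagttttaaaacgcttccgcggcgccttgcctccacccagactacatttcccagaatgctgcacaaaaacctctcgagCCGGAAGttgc
Mrpl44: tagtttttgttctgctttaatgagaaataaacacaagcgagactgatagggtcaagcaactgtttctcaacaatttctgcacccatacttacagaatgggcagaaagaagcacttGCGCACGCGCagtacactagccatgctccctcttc

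Together the 78 genes took 0.694% to 1.57% of the counts of a library. As a share of the library's counts, the summed level was 0.841% to 1.21% in the 4 fresh libraries that had over 10000 genes detected (mean 1.07% ± 0.161, SD, n = 4). At pH 7.4 it was 0.715%, 0.806% and 0.859% in odd-numbered mice and 0.932%, 0.965% and 1.03% in even-numbered mice. At pH 6.9 it was 1.20% in both odd-numbered mice kept, and 0.806%, 0.711% and 0.694% in mice 2, 4 and 6.

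The 2 sets of mice went opposite ways. In odd-numbered mice both pH 6.9 libraries lay above all 3 pH 7.4 libraries, and in even-numbered mice all 3 pH 6.9 libraries lay below all 3 pH 7.4 libraries. The libraries that stood apart were high: 1.53% in the fresh library of mouse 4 and 1.57% in the pH 6.9 library of mouse 3. The fresh library of mouse 1 had 1.01%, from 64 counts. The large-subunit genes held 64.2% to 66.5% of the members' counts in the 15 libraries.

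**Figure D1:**
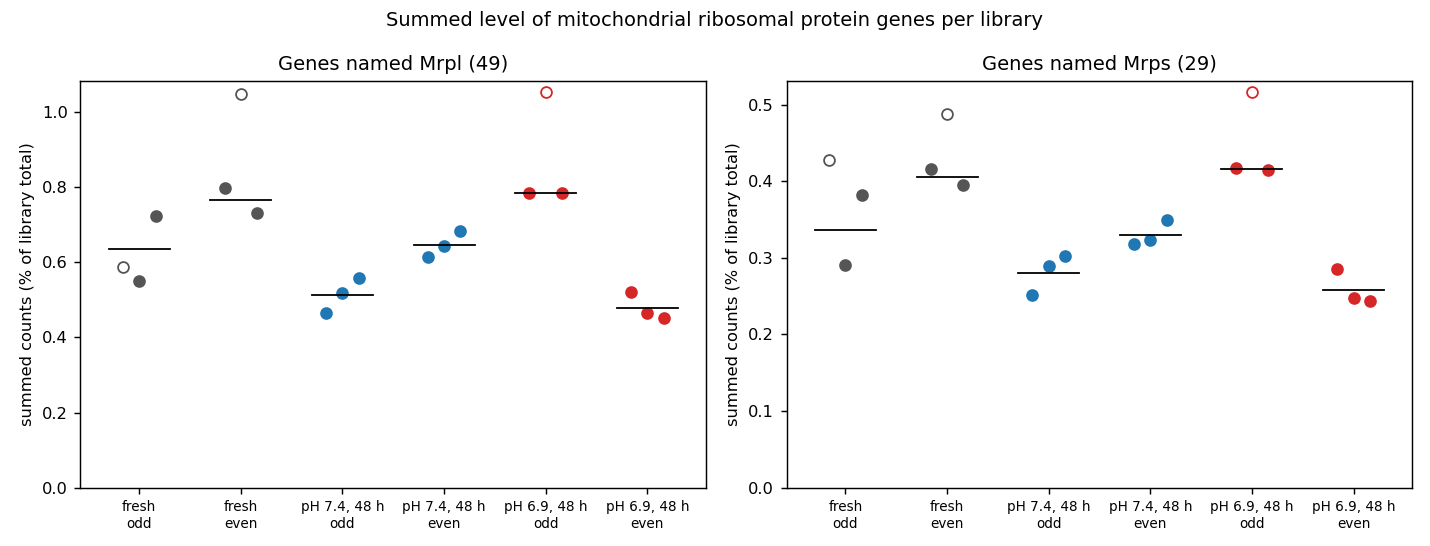
Summed counts of the Mrpl genes (left) and Mrps genes (right) as a percentage of each library's total, by group and by odd- or even-numbered mice. Points are libraries, open points are the 3 libraries with under 10000 genes detected, and lines are means of the filled points. For the members as a whole, both filled pH 6.9 libraries of odd-numbered mice were at 1.20% and those of even-numbered mice at 0.694% to 0.806%.

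Levels differed widely between members. Per kilobase of median transcript length, over the 15 libraries, Mrpl42 was highest at 385 ± 122 CPM per kb (SD, n = 15), with a range of 217 to 554. Mrpl20 and Mrpl33 followed at 342 ± 137 and 342 ± 127 CPM per kb. The ranges of these 3 overlapped, and no test compared them within libraries. Their messages are short, at 0.661, 0.494 and 0.478 kb. The lowest was Mrpl57 at 10.2 ± 2.49 CPM per kb, next to Mrps5 at 12.3 ± 3.16 and Mrpl47 at 16.3 ± 4.49. The range of Mrpl57 (4.37 to 12.4) overlapped that of Mrps5 (7.28 to 17.9). Lengths were taken from the reference annotation and not from the transcripts used in these cells, so short or long isoforms would shift a rank.

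**Figure D2:**
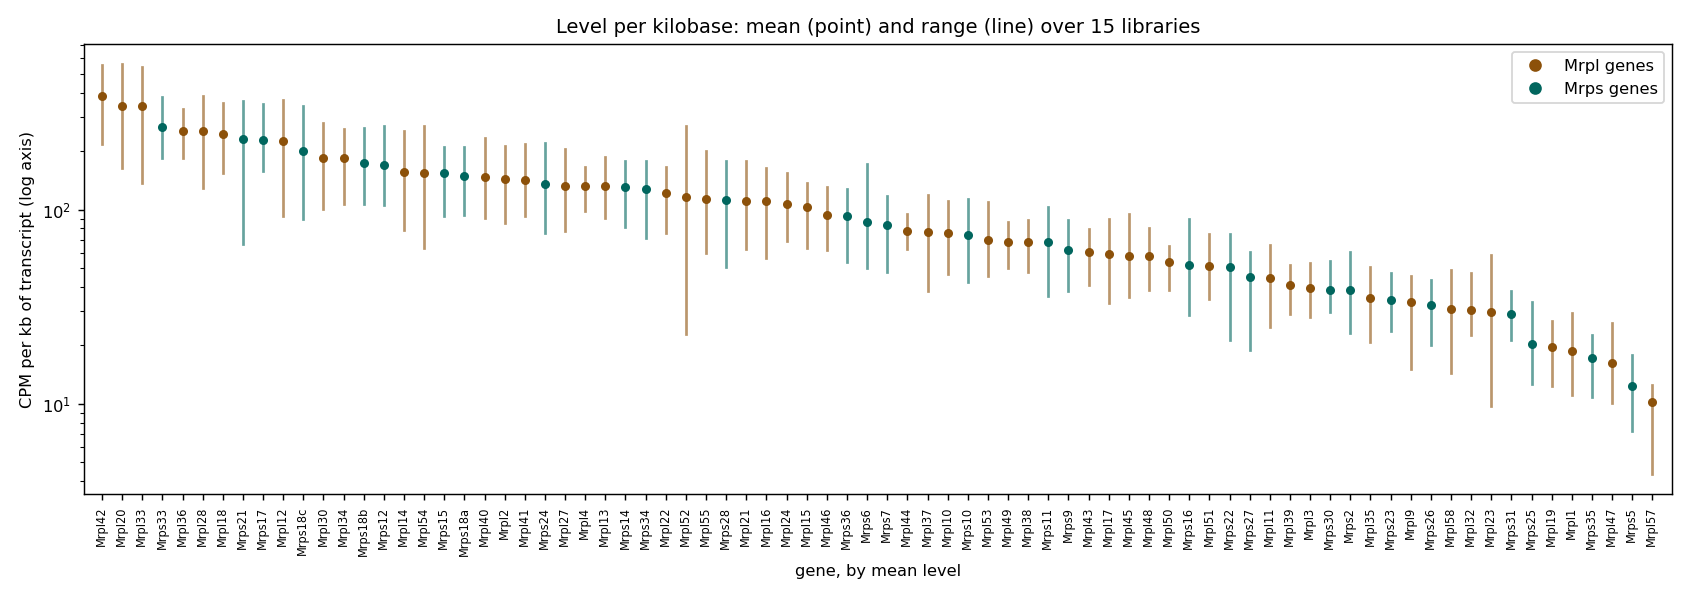
Level of each of the 78 genes in CPM per kilobase of transcript (log axis), ranked by mean. Points are means and lines the range over 15 libraries. Mrpl42 heads the order at 385 CPM per kb and Mrpl57 closes it at 10.2, and neighbouring ranges overlap.

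The first comparison asked whether culture at pH 6.9 changed these genes relative to pH 7.4 when all mice are pooled. No member passed an adjusted p of 0.05 in edgeR's quasi-likelihood test, in a fit where 0% of all 10104 genes passed. At an unadjusted p under 0.05 the count was also 0 of 78 (2.51% of all genes), and DESeq2 and limma-voom called 0 as well. Fold changes were positive for 66 of the 78 (49% of all genes), and their median was 0.46 on the log2 scale (all genes, -0.014). That median fell to 0.065 without the pH 6.9 library of mouse 3 and to 0.044 over the 15 libraries, and was -0.19 with limma-voom, so no direction is given.

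The members with the smallest p show the spread. Mrps33, a small-subunit protein, had 147, 207 and 579 CPM (lowest, median, highest) at pH 6.9, compared with 132, 168 and 194 at pH 7.4. The groups overlapped, and the 579 belongs to mouse 3. Its log2 fold change was 0.67 ± 0.34 (SE, edgeR adjusted p = 0.997). Mrpl55, a large-subunit protein, had 53.0, 96.0 and 277 CPM at pH 6.9, compared with 45.3, 70.5 and 97.7 at pH 7.4. Mrpl58, a peptidyl-tRNA hydrolase built into the large subunit that frees stalled chains, had 54.1, 94.7 and 255 CPM at pH 6.9, compared with 36.2, 72.2 and 74.7 at pH 7.4. Both pairs of groups overlapped, and in both genes the highest pH 6.9 value was that of mouse 3.

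Culture at pH 7.4 against fresh cells gave 0 called members as well, in a fit that called 0% of all genes, with 14 members (3.77% of all genes) at an unadjusted p under 0.05 by edgeR; DESeq2 and limma-voom also called 0. Fold changes were positive for 10 of 78 (55.6% of all genes), with a median log2 value of -0.59 (all genes, 0.079), and the median was -0.28 without the fresh library of mouse 4 and -0.30 over the 15 libraries. Mrpl14, which lies in the large subunit at its interface, had 50.4, 81.1 and 107 CPM at pH 7.4 (lowest, median, highest) and 94.5, 142 and 202 in fresh cells. Its ranges overlapped between 94.5 and 107, and its log2 fold change was -0.75 ± 0.30 (SE, edgeR adjusted p = 0.879). Mrpl11, a component of the stalk base, had 48.2, 72.9 and 102 CPM at pH 7.4 and 68.2, 118 and 298 in fresh cells. For Mrpl14 and Mrpl11 the highest fresh value was that of mouse 4, and the fresh value of mouse 1 rested on 2 counts.

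For pH 6.9 against fresh cells, 0 members and 0% of all genes passed, 0 members (2.27% of all genes) had an unadjusted p under 0.05 by edgeR, and DESeq2 and limma-voom called 0. The median log2 fold change was -0.18 and 13 of 78 were positive (52% of all genes). The median changed sign, to 0.075, without the fresh library of mouse 4, and was -0.51 without the pH 6.9 library of mouse 3. Mrps26, a small-subunit protein, had 85.8, 138 and 179 CPM at pH 6.9, compared with 111, 179 and 205 in fresh cells. Mrpl33 had 71.8, 174 and 300 CPM at pH 6.9, compared with 150, 230 and 284 in fresh cells, and both genes' ranges overlapped. In both genes the highest fresh value was that of mouse 4 and the highest pH 6.9 value that of mouse 3. These 3 comparisons share groups, so their values are set side by side and not counted together.

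Within each set of mice the same pH comparison gave calls, in opposite directions. These values come from 1 fit with 6 sets over the 15 libraries and 10659 genes. In odd-numbered mice, pH 6.9 (mice 1 and 5) against pH 7.4 (mice 1, 3 and 5) called 27 members, all higher, against 5.07% of all genes called higher. In even-numbered mice, with 3 libraries a side, it called 15 members, all lower, against 4.07% of all genes called lower. The median log2 fold change of members was 0.68 in odd-numbered mice (all genes, -0.080) and -0.51 in even-numbered mice (all genes, 0.037). In odd-numbered mice 75 of 78 were positive (46% of all genes), and in even-numbered mice 2 were, Mrpl14 and Mrps21 (52.8% of all genes). In odd-numbered mice both pH 6.9 libraries lay above all pH 7.4 libraries for 60 members (19.1% of all genes), and in even-numbered mice they lay below for 48 (16.4%). At an unadjusted p under 0.05 there were 49 and 43 members (26.7% and 21% of all genes). Of all 78, 73 were positive in the first and negative in the second (93.6%), as were 28.0% of all genes.

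The difference between the 2 pH effects, tested directly as a contrast in the same fit, was called for 48 members, all in the direction of a more positive effect in odd-numbered mice. Of all genes, 9.09% were called in that direction. All 78 differences were above 0 (45.1% of all genes), with a median log2 value of 1.21 (all genes, -0.14). Of the 48, 12 were called in neither set alone. The 27, the 15 and the 48 rest on which libraries enter: leaving out 1 library at a time gave 7 to 33, 1 to 17 and 39 to 50 calls, and with all 18 libraries in the 6-set fit the counts were 0, 0 and 1. With the mouse number as a block the odd-numbered count was 15. For 37 of the 48 genes the difference was called in each of the 15 leave-one-out fits.

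Removal of a single library moved the odd-numbered count to 8 without pH 7.4 mouse 1, 17 without pH 7.4 mouse 3, and 7 without either pH 6.9 library. In even-numbered mice it was 7, 5 and 1 without the pH 7.4 libraries of mice 2, 4 and 6, and 9, 4 and 1 without the pH 6.9 libraries of mice 2, 4 and 6. The median log2 fold changes in these refits stayed between 0.56 and 0.71 in odd-numbered mice and between -0.54 and -0.41 in even-numbered mice. In 2 of the 15 leave-one-out fits the odd-numbered pH 6.9 set holds 1 library, which is then assumed to vary like the other sets. With that assumption, in all 15 fits Mrpl12, Mrpl20, Mrpl40, Mrpl55 and Mrps17 stayed called in odd-numbered mice, and in even-numbered mice Mrpl12 alone did.

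**Figure D3:**
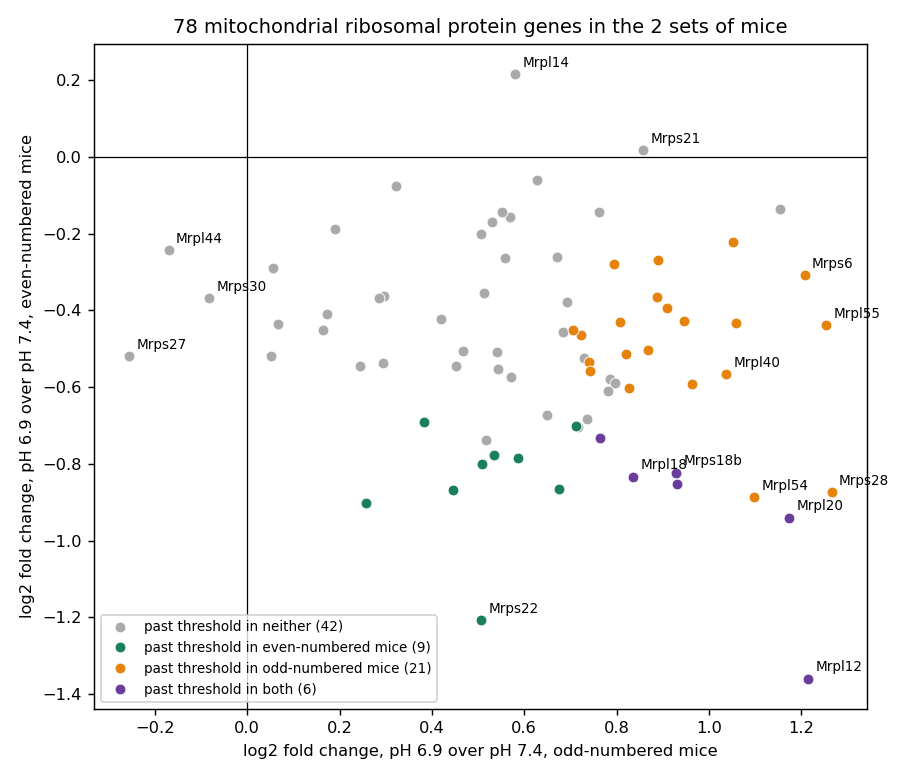
Each point is 1 of the 78 genes: its log2 fold change, pH 6.9 over pH 7.4, in odd-numbered mice (horizontal) and even-numbered mice (vertical), coloured by whether it passed adjusted p 0.05 (edgeR) in each. Most points, 73 of 78, lie at the lower right, and 6 passed in both sets with opposite signs.

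Markers of granulocyte and monocyte precursors (6 genes, such as Mpo and Elane) moved with the sets. Their summed level was 1754 to 5107 CPM in pH 7.4 libraries of even-numbered mice and 34.1 to 49.9 CPM at pH 6.9 in the same mice. In odd-numbered mice it was 44.8 to 74.3 CPM at pH 7.4 and 166 CPM in both pH 6.9 libraries. All 6 had counts in both even-numbered sets. In odd-numbered mice Cebpe was at 0 at both pH values and Elane at pH 7.4. The 13 LT-HSC markers summed to 553 to 812 CPM in pH 7.4 even-numbered libraries and 1493 to 1912 CPM at pH 6.9. In odd-numbered mice they summed to 1305 to 1782 CPM at pH 7.4 and 1243 to 1621 CPM at pH 6.9. In the 2 fresh odd-numbered libraries the precursor list was at 76.3 and 5516 CPM.

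Other lists differed without overlap as well. In odd-numbered mice the monocyte or dendritic list was at 145 to 298 CPM at pH 7.4 and 358 to 426 CPM at pH 6.9. The erythroid list, with 5 of its 7 genes in the table, was there at 10.6 to 114 and 144 to 193 CPM, with Car1 at 0 at both pH values and Klf1 at pH 6.9. The genes low in LT-HSCs were at 1163 to 2138 and 730 to 822 CPM. In even-numbered mice the mast cell or basophil list was at 36.5 to 176 CPM at pH 7.4 and 1.16 to 23.6 CPM at pH 6.9, with Prss34 at 0 at both and Ms4a2 at pH 6.9. The part of these cells in the members' values was not tested.

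Among large-subunit genes, 19 of 49 were called higher in odd-numbered mice and 9 lower in even-numbered mice, and 31 had a called difference. Of all genes, 5.07% were called higher, 4.07% lower and 9.09% with a positive difference. The large-subunit medians were 0.69, -0.46 and 1.19 (log2). Mrpl12 forms part of the L7/L12 stalk, the arm that recruits translation factors. It had 454 and 423 CPM at pH 6.9 in odd-numbered mice 1 and 5, against 163, 203 and 199 at pH 7.4. In even-numbered mice 2, 4 and 6 it had 160, 157 and 123 CPM at pH 6.9, compared with 344, 404 and 364 at pH 7.4. The groups did not overlap in either set, and each even-numbered pH 6.9 value lay below all the odd-numbered ones. The log2 fold change was 1.22 ± 0.22 (SE, edgeR adjusted p = 0.00252) in odd-numbered and -1.36 ± 0.20 (edgeR adjusted p = 0.000963) in even-numbered mice, and the difference 2.58 ± 0.29 (edgeR adjusted p = 2.19e-05).

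Mrpl20 had 245 and 276 CPM at pH 6.9, compared with 112, 103 and 132 at pH 7.4 in odd-numbered mice. In even-numbered mice it had 106, 81.1 and 94.5 at pH 6.9, compared with 182, 133 and 218 at pH 7.4. Again neither pair of groups overlapped. The difference was 2.11 ± 0.32 (SE, edgeR adjusted p = 0.000227), and both single effects were called (1.17 and -0.94).

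Mrpl18 had 397 and 431 CPM at pH 6.9, compared with 195, 214 and 285 at pH 7.4 in odd-numbered mice, and 209, 190 and 189 at pH 6.9, compared with 313, 357 and 366 at pH 7.4 in even-numbered mice. The groups did not overlap in either set. Its difference was 1.67 ± 0.29 (SE, edgeR adjusted p = 0.000615). Mrpl40 rose in odd-numbered mice, from 103, 104 and 137 CPM to 241 and 230, and its even-numbered values (134, 152 and 163 at pH 7.4, 119, 95.8 and 93.5 at pH 6.9) did not pass alone. Its difference of 1.60 ± 0.28 (SE) was called (edgeR adjusted p = 0.000798).

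Mrpl55 rose in odd-numbered mice, from 45.3, 57.5 and 71.7 CPM at pH 7.4 to 152 and 128 at pH 6.9. In even-numbered mice its log2 fold change was -0.44 ± 0.24 (SE), which did not pass. Mrpl2, a protein of the peptidyl transferase region, fell in even-numbered mice, from 138, 185 and 152 CPM to 100, 93.4 and 85.2 (log2 fold change -0.78 ± 0.20, edgeR adjusted p = 0.0271). Mrpl58 rose in odd-numbered mice by 1.05 ± 0.28 (log2, SE) and had a log2 fold change of -0.22 ± 0.25 in even-numbered mice. The hydrolase had a called difference of 1.27 ± 0.38 (SE, edgeR adjusted p = 0.0255).

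Mrpl11, at the base of the stalk that carries Mrpl12, rose in odd-numbered mice (log2 fold change 1.06 ± 0.26, SE, edgeR adjusted p = 0.0157) and had a called difference of 1.49 ± 0.35 (SE). Mrpl10, which anchors the stalk, had 57.38 and 121 CPM at pH 6.9, compared with 81.1, 92.1 and 88.7 at pH 7.4 in odd-numbered mice, and neither its single effects nor its difference of 0.57 ± 0.39 (SE) passed. The spread of the pH 6.9 pair was 45.1 CPM (SD) for Mrpl10 and 21.6 CPM for Mrpl12.

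Mrpl44, a protein with an RNase III-like fold, was nearly level. It had 109 and 103 CPM at pH 6.9, compared with 93.5, 127 and 136 at pH 7.4 in odd-numbered mice, and 124, 101 and 91.0 at pH 6.9, compared with 114, 132 and 123 at pH 7.4 in even-numbered mice. The groups overlapped in both sets, and the difference was 0.072 ± 0.30 (SE), the smallest of the 78. Mrpl36 had a called difference of 0.87 ± 0.28 (SE, edgeR adjusted p = 0.0359), and Mrpl45, which tethers the ribosome to the inner membrane, one of 1.42 ± 0.34 (edgeR adjusted p = 0.00665); neither passed in a single set.

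**Figure D4:**
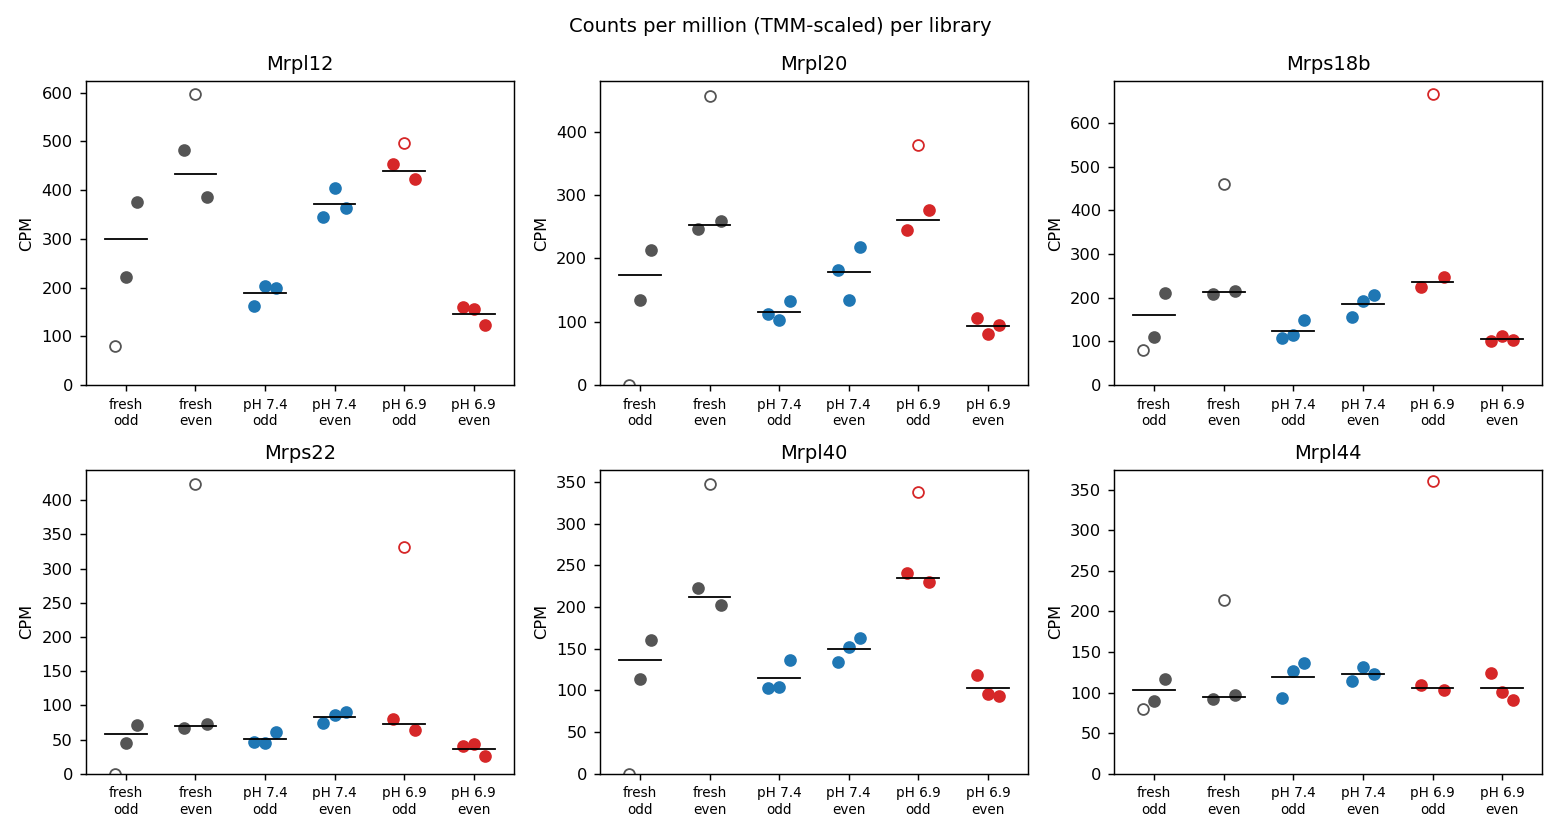
CPM of 6 members in each library, by group and by odd- or even-numbered mice. Filled points are the 15 libraries, open points the 3 with under 10000 genes detected, and lines are means of the filled points. Mrpl12 sits at 423 to 454 CPM in odd-numbered and 123 to 160 CPM in even-numbered pH 6.9 libraries, whereas Mrpl44 sits at 91.0 to 136 CPM in all cultured libraries shown filled.

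Among small-subunit genes, 8 of 29 were called higher in odd-numbered mice and 6 lower in even-numbered mice, and 17 had a called difference. The shares of all genes were 5.07%, 4.07% and 9.09%. The small-subunit medians were 0.67, -0.53 and 1.25 (log2). Mrps28 had 115 and 139 CPM at pH 6.9, compared with 39.6, 65.5 and 52.3 at pH 7.4 in odd-numbered mice, and 58.0, 52.4 and 48.1 at pH 6.9, compared with 85.8, 76.7 and 124 at pH 7.4 in even-numbered mice. It rose in odd-numbered mice, its values did not overlap in either set, and its difference was 2.14 ± 0.40 (SE, edgeR adjusted p = 0.00118). Mrps18b, 1 of 3 related proteins in mammals with Mrps18a and Mrps18c, had 225 and 247 CPM at pH 6.9 against 108, 115 and 148 at pH 7.4 in odd-numbered mice, and 101, 112 and 104 against 155, 193 and 207 in even-numbered mice. Both effects passed (0.93 and -0.82), and the difference was 1.75 ± 0.32 (SE, edgeR adjusted p = 0.00105).

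The other 2 relatives had smaller values. Mrps18a, which despite its symbol sits in the large subunit, had a called difference of 1.32 ± 0.32 (SE, edgeR adjusted p = 0.00669) and passed in neither set alone. Mrps18c had a difference of 0.93 ± 0.44 (SE), which did not pass (edgeR adjusted p = 0.155).

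Mrps22 fell in even-numbered mice, from 74.7, 85.6 and 90.2 CPM at pH 7.4 to 41.2, 43.7 and 25.6 at pH 6.9 (log2 fold change -1.21 ± 0.26, SE, edgeR adjusted p = 0.0105). In odd-numbered mice it had 80.2 and 64.3 CPM at pH 6.9, compared with 45.8, 44.5 and 61.4 at pH 7.4. Those groups did not overlap, but the change did not pass. Mrps7 fell in even-numbered mice from 169, 230 and 202 CPM to 93.4, 130 and 109 (log2 fold change -0.87 ± 0.21, edgeR adjusted p = 0.017). Mrps25 rose in odd-numbered mice from 98.3, 98.4 and 95.4 CPM to 173 and 203, and Mrps6 from 53.9, 42.5 and 64.9 to 145 and 104.

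Mrps12, part of the decoding centre, rose in odd-numbered mice (log2 fold change 0.74 ± 0.21, SE, edgeR adjusted p = 0.0283), with 178 and 201 CPM against 95.4, 118 and 126. Mrps34 had a called difference of 1.39 ± 0.35 (SE, edgeR adjusted p = 0.00913). Mrps36, since assigned to the ketoglutarate dehydrogenase complex in place of the ribosome, had 80.8 and 58.0 CPM at pH 6.9, compared with 48.7, 49.7 and 66.5 at pH 7.4 in odd-numbered mice. Its difference of 0.40 ± 0.43 (SE) did not pass (edgeR adjusted p = 0.577). Next to Mrpl44, the smallest differences were those of Mrps27 (0.26 ± 0.45) and Mrps30 (0.29 ± 0.31), the latter a large-subunit protein despite its symbol.

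**Figure D5:**
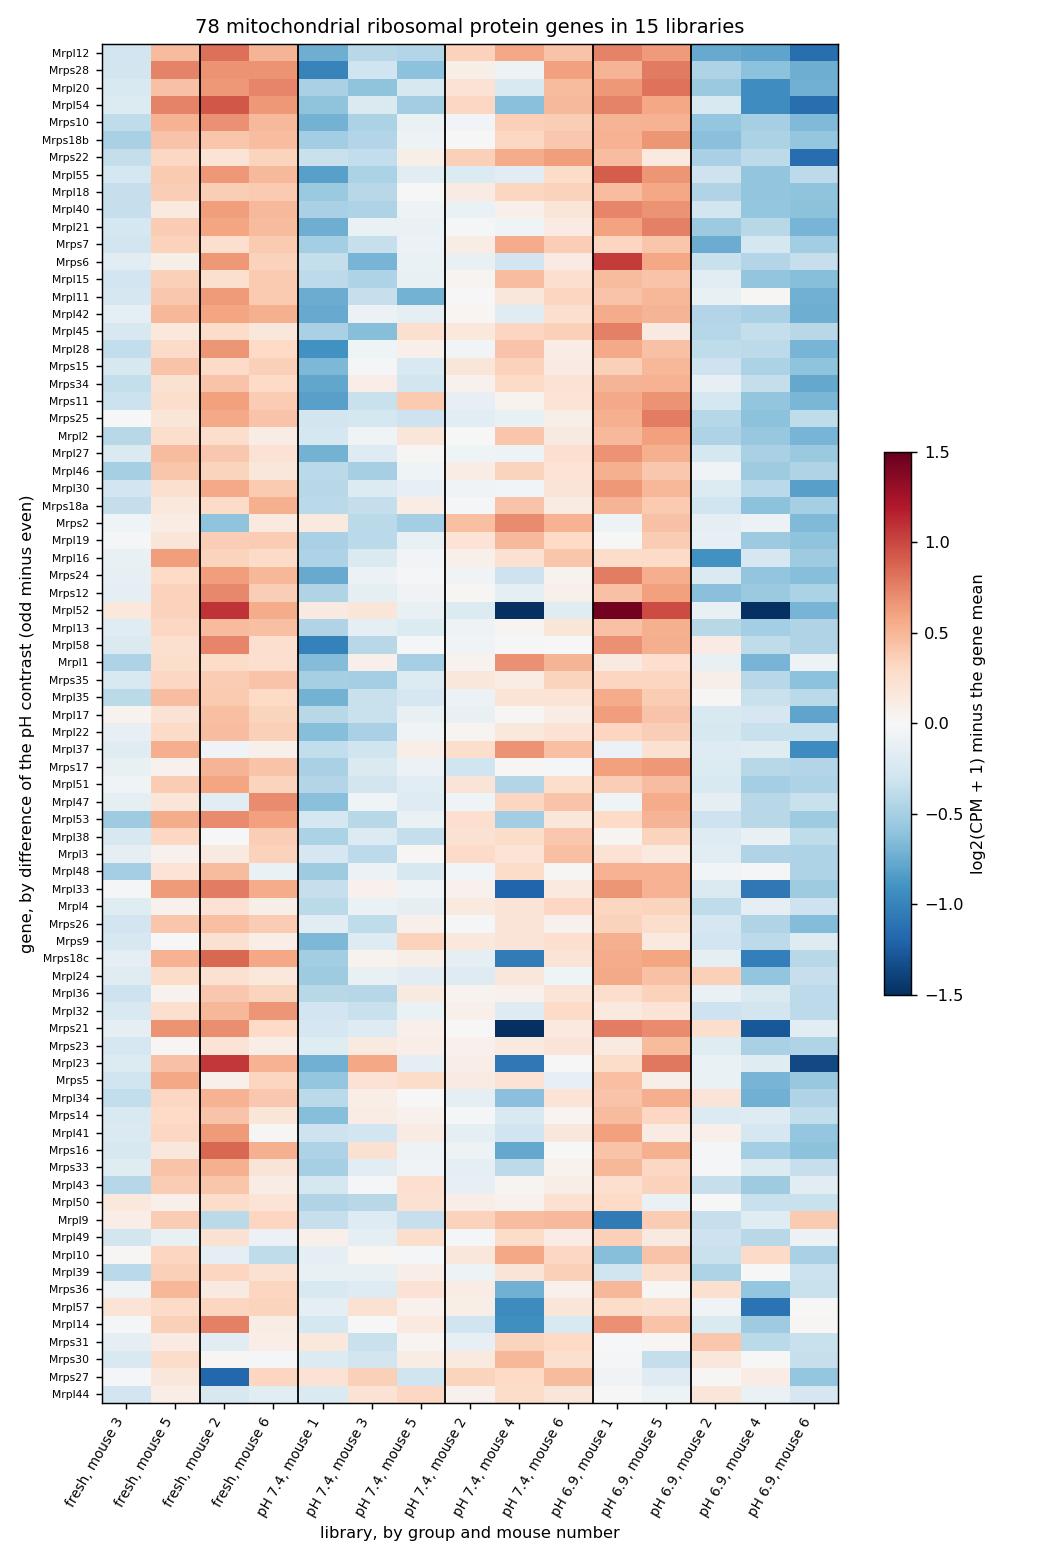
Log2(CPM + 1) of the 78 genes in 15 libraries, minus each gene's mean, ordered from the largest (Mrpl12) to the smallest (Mrpl44) difference of the pH effect between odd- and even-numbered mice. Columns are libraries by group and mouse, with lines between the 6 sets, and values past the ends of the colour scale take its end colours. Most rows are red in the pH 6.9 libraries of mice 1 and 5 and blue in those of mice 2, 4 and 6, and a few short genes, among them Mrpl52, are darkest blue in both cultures of mouse 4.

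Against fresh cells of the same parity, pH 6.9 in even-numbered mice was the comparison with calls: 38 members were lower, against 6.15% of all genes called lower, and the median log2 fold change was -0.78 (all genes, 0.057). All 3 pH 6.9 libraries lay below both fresh ones for 65 members (20.5% of all genes). Mrpl12 had 481 and 386 CPM in fresh mice 2 and 6 and 160, 157 and 123 at pH 6.9 (log2 fold change -1.58 ± 0.22, SE, edgeR adjusted p = 0.000408). Mrpl54 had 163 and 133 CPM in those fresh libraries and 72.5, 44.0 and 38.3 at pH 6.9 (-1.55 ± 0.34, edgeR adjusted p = 0.00679). The groups of both genes did not overlap. The count was 8 and 18 without the fresh libraries of mice 2 and 6, 16 and 23 without the pH 6.9 libraries of mice 6 and 4, and 1 with all 18 libraries. Of 9 marker lists, 6 with counts in both sets also had summed levels that did not overlap between these sets. The T cell list did not overlap either, but was near the floor, at 0 CPM in the fresh and 0.192 to 1.20 CPM in the pH 6.9 libraries. The granulocyte and monocyte precursor list was at 117 to 271 CPM in fresh even-numbered libraries and 34.1 to 49.9 CPM at pH 6.9, and the LT-HSC list at 908 to 939 and 1493 to 1912 CPM. The list of genes low in LT-HSCs (Cd34, Cd48 and Flt3) was at 711 to 717 and 1249 to 1992 CPM, the megakaryocyte list at 406 to 578 and 56.6 to 368 CPM. The erythroid list was at 225 to 499 and 8.08 to 221 CPM, and the monocyte or dendritic list at 276 to 365 and 168 to 212 CPM. Cebpe was at 0 in the fresh libraries, and Car1 and H2-Aa at pH 6.9. Their part in the result was not tested.

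In odd-numbered mice pH 6.9 called 0 members against fresh cells (0.6% of all genes called), with a median log2 fold change of 0.37, 70 of 78 positive (47.5% of all genes) and 13 at an unadjusted p under 0.05 by edgeR (13.6%); DESeq2 called 1. Culture at pH 7.4 called 0 in either set, where 0.113% and 0.103% of all genes passed in odd- and even-numbered mice, with medians of -0.31 and -0.26 and with 12 and 21 members at an unadjusted p under 0.05 (10.5% and 12.4% of all genes). Without the filter on low counts, edgeR called 1 and 5 members. The odd-numbered medians rest on the 2 fresh libraries. For pH 6.9 the median was 0.082 without fresh mouse 3 and 0.67 without fresh mouse 5, and for pH 7.4 it was -0.53 and -0.014 without them and -0.21 without pH 7.4 mouse 1. These comparisons use the same cultured libraries as the pH contrasts and are not independent of them.

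Over the 6 sets, 43 of 78 members had their highest mean in pH 6.9 odd-numbered mice (55.1%, all genes 21.5%) and 23 in fresh even-numbered mice (29.5%, all genes 15.6%). The other 12 had it in pH 7.4 even-numbered mice (15.4%), close to the 14.4% of all genes. The lowest mean was in pH 6.9 even-numbered mice for 59 (75.6%, all genes 19.4%). The highest set mean exceeded the lowest by between 1.19-fold, in Mrps31, and 3.85-fold, in Mrpl52.

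Other parts of the mitochondrial translation machinery were counted in the same fit, in which 5.07% of all genes rose in odd-numbered mice, 4.07% fell in even-numbered mice and 9.09% had a called positive difference. No test compared the lists with these shares. A list of ribosome subunits with other symbols also held Oxa1l, which is not a ribosome subunit. Of its 6 tested genes, 1 rose in odd-numbered mice (Gadd45gip1), 1 fell in even-numbered mice (Ptcd3) and 5 had a called difference. The median difference over the 6 was 1.19. Among 28 assembly and rRNA modification factors the counts were 0, 1 (Fastkd2) and 1, with a median difference of 0.25, below the shares of all genes. Among 17 translation factors they were 0, 3 and 3 (median 0.42): the elongation factor Tufm fell in even-numbered mice, from 188 ± 16.6 CPM at pH 7.4 to 95.6 ± 34.4 CPM at pH 6.9 (SD, n = 3, edgeR adjusted p = 0.0186), and its partner Tsfm and the RNA-processing enzyme Pnpt1 also fell. Among 20 mitochondrial tRNA synthetases they were 1, 1 and 2 (median 0.17), and both single calls were Yars2; these counts are near the shares of all genes. Among 10 factors of mitochondrial transcription and genome maintenance they were 1 (Ssbp1), 1 (Elac2) and 1 (median 0.58).

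Larger families were counted in the same way. Of 83 tested cytosolic ribosomal protein genes, 33 rose in odd-numbered mice, 7 fell in even-numbered mice and 46 had a called positive difference, with a median of 1.25. Of 77 respiratory chain subunit genes the counts were 12 up and 1 down, 8 down, and 24, with a median of 0.97. The members' median difference was 1.21, and no test compared the families.

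Called differences were also counted by promoter feature, with no test between the groups, where 9.09% of all genes had a called positive difference. Of the 43 with an NRF1, ETS or YY1 match, 24 had a called difference (median 1.14), and of the 26 with a promoter but no match, 15 did (median 1.28). The 33 with a head-to-head partner had 18 (median 1.14), and the 45 without one had 30 (median 1.25). Without the members whose exons overlap another gene, 63 remained, with 38 called differences and a median of 1.19. Mrpl12 and Mrpl44, shown above for their largest and smallest differences, both hold the NRF1 letters. Whether the motifs bear on the differences was not tested.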

How the data were processed

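Complementary DNA was amplified with the SMART-Seq v4 kit, tagged with Nextera XT and sequenced as paired 75 bp reads, per the labels' protocols. Reads were quantified with kallisto, and mm10 is named as the build, per the submitters' processing notes, with no version given. The values deposited by the authors are estimated counts per gene symbol, all whole numbers. The step from transcripts to genes was not given in the sources used here.

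Genes were filtered with filterByExpr, scaled by TMM and tested with edgeR 4.0.16 (R 4.3.3, robust quasi-likelihood), with Benjamini-Hochberg adjustment over all genes and a threshold of 0.05. One fit held 18 libraries and 3 groups (10104 genes). The other held the 15 libraries with at least 1e+05 counts and 10000 detected genes, as 6 sets of group and mouse parity (10659 genes). CPM are counts per 1e+06 on TMM-scaled totals. For a count of 0 the floor is 3 counts in that library. The libraries carry no molecular identifiers, so counts can include copies made in amplification. Alternatives used limma 3.58.1, DESeq2 1.42.0, other filters, scaling and libraries. The fits were tried on simulated data with 200 changed genes. Over 18 libraries, pH 6.9 against pH 7.4 recovered 0% of 1.5-fold, 2.99% of 2-fold and 69.7% of 4-fold changes. Within odd-numbered mice the shares were 0%, 17.9% and 74.2%, and within even-numbered mice 2.99%, 38.8% and 84.8%. A count of 0 called members can thus miss most changes of 2-fold or less, and some of 4-fold. Lengths and coordinates come from GENCODE annotation of GRCm38.

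The members and gene lists were chosen with earlier results of these data known. Named genes are the members with the smallest p in each contrast (up to 6 a direction within sets, 3 over all groups), the 3 highest and lowest per kilobase, and a fixed set chosen for role. Outside this rule, Mrpl52, Mrps27, Mrps30 and others were named after their values were seen. Mrpl54 met the rule for pH 6.9 against fresh cells over all groups, but its values in even-numbered mice were picked after they were seen.

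The design text names 6 individual mice, so equal numbers were taken to pair libraries across groups. The correlation across genes of deviations from the set means was -0.09 to 0.16 over 12 pairs, and 4 were over 0.1.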

Additional observations from a re-analysis of the deposited data

Results flagged for a closer look

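For groups of 6 libraries, a sample was listed when its gap to the nearest other sample was large against the whole range of its group. Of 105 groups tested, 24 were listed, and chance gives about 1 in 20. All 24 lay in the 3 libraries with under 10000 genes detected: 11 in the fresh library of mouse 4, 12 in the pH 6.9 library of mouse 3 and 1 in the fresh library of mouse 1. TMM factors were 0.610 and 0.638 in the first 2 and 0.963 to 1.10 in the 15 libraries kept, which raises the CPM of the former.

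In the fresh library of mouse 4 the values were, in CPM, Mrpl18 at 1413, Mrpl42 at 1140, Mrpl2 at 572, Mrps33 at 513, Mrps28 at 479 and Mrps18b at 459. Further values there were Mrpl45 at 427 CPM, Mrps22 at 423, Mrps34 at 370, Mrpl55 at 345 and Mrpl44 at 215. In the pH 6.9 library of mouse 3 the values were Mrpl18 at 1320 CPM, Mrpl42 at 1082, Mrps18b at 667, Mrps33 at 579, Mrps28 at 395 and Mrps34 at 388. The rest were Mrpl44 at 361 CPM, Mrps22 at 332, Mrps18a at 309.7, Mrpl58 at 255, Mrpl11 at 232 and Mrpl47 at 164. Mrpl57 had 0 CPM in the fresh library of mouse 1, where 3 counts correspond to 475 CPM.

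The pH contrast differed between odd- and even-numbered mice for 48 members by a direct test. The log2 differences of the named members were 2.58 for Mrpl12, 2.14 for Mrps28, 2.11 for Mrpl20, 1.75 for Mrps18b, 1.67 for Mrpl18 and 1.60 for Mrpl40.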

How the results depend on the processing

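For pH 6.9 against pH 7.4, the odd-numbered count of 27 was 15 with the mouse number as a replicate block and 0 with all 18 libraries, and 7 to 33 with 1 library left out. The even-numbered count of 15 was 30 with limma-voom, 0 with all 18 libraries and 1 to 17 with 1 library left out. The difference (48) was 1 with all 18 libraries and 39 to 50 with 1 left out. For pH 6.9 against fresh cells in even-numbered mice, 38 became 1 with all 18 libraries and 8 to 42 with 1 left out, and in odd-numbered mice 0 became 1 with DESeq2. For pH 7.4 against fresh cells, 0 became 1 and 5 (odd, even) without the filter. The other counts, with 1 library left out, were 0 to 0. The block changed no other count by over 1.5 times (13 in even-numbered mice, 43 for the difference, 33 against fresh). The causes were not tested.

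Among the genes chosen by the naming rule, signs changed for uncalled values of 5. Mrps27, Mrps30, Mrps31 and Mrpl52 were not followed gene by gene. In odd-numbered mice Mrpl10 was -0.023 with the block, -0.30 with all 18 libraries and -0.61 to 0.47 with 1 left out, and Mrpl44 was 0.68 with all 18. In even-numbered mice, with 1 library left out, Mrps18c ran from -0.54 to 0.060, Mrps36 from -0.33 to 0.098 and Mrpl57 from -0.47 to 0.11. The difference ran from -0.098 to 0.99 for Mrpl10 and from -0.073 to 0.20 for Mrpl44. Of the 1182 values of named genes with 1 library left out, 1101 kept both direction and side of the threshold. Summed levels without the 20 highest genes moved from 1.14% to 1.26% (fresh), 0.885% to 0.969% (pH 7.4) and 1.03% to 1.15% (pH 6.9). Sets of 2 or 3 libraries limit all within-set values.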

Other observations

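Some members with short messages were low in both cultures of mouse 4. A split at 0.8 kb of median transcript length, made after the values were seen, gave 21 shorter and 57 longer members. In the pH 7.4 library of mouse 4 the median log2 deviation from the mean of 15 libraries was -0.39 for the shorter and 0.22 for the longer members. In the pH 6.9 library of that mouse the medians were -0.59 and -0.42. The shorter minus the longer median was thus -0.61 and -0.17, and in the other 13 libraries it was -0.068 to 0.31. On this measure the pH 7.4 library alone lay far from the rest. The rank correlation (Spearman) of the deviations with length was 0.46 in that library. It was -0.47 and -0.46 at pH 6.9 in mice 1 and 5, and -0.48 in fresh mouse 2. At pH 6.9 it was 0.12, 0.32 and 0.18 in mice 2, 4 and 6, and -0.35 to 0.20 in the remaining libraries. Mrpl52 (0.441 kb) had 10.1 and 13.8 CPM in the pH 7.4 and pH 6.9 libraries of mouse 4, and 26.2 to 119 CPM in the other 13. Mrps21 (0.447 kb) had 29.9 and 38.3 CPM there, and 78.7 to 161 CPM in the other 13. In even-numbered mice 1 of 21 shorter and 14 of 57 longer members fell at pH 6.9 against pH 7.4, with medians of -0.38 and -0.53, where 4.07% of all genes fell. Whether transcript length accounts for this was not tested.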
